A study of Mus musculus with 40 samples.

Results

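Nephron progenitors and the ureteric bud build the mammalian kidney, and the genes described here are Six2, Eya1, Cited1, Sall1, Osr1, Lhx1, Pax2, Wnt4, Gdnf and Ret, 10 genes named for their roles in those cells. They were taken by symbol, and 9 of the 10 have a probe set that carries their symbol alone, among 18194 genes with such a probe set. Pax2 was not analysed here. The study measured total RNA of whole organs from male C57BL/6 mice on Affymetrix arrays, 1 array per sample, in 8 groups of 5. Kidney and lung were sampled at ages of 1, 4 and 8 weeks, and heart at 1 and 4 weeks only. No group was treated or carried a transgene, and the labels describe the organs as proliferating rapidly at 1 week and progressively more slowly at 4 and 8 weeks. The comparisons of age therefore ask how the genes of kidney construction stand once juvenile growth slows, and lung and heart serve as reference organs.

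The kidney grows from an exchange of signals between the ureteric bud, an epithelial tube that branches into the collecting ducts, and the cap mesenchyme, the pool of nephron progenitors around each bud tip. The mesenchyme secretes the ligand Gdnf, which acts on the receptor tyrosine kinase Ret at the bud tip and drives branching. The transcription factors Six2, Eya1, Sall1 and Osr1 and the coregulator Cited1 mark or maintain the progenitors, whereas Wnt4 and Lhx1 act when progenitors become epithelial vesicles, the first stage of a nephron. In the mouse the progenitor pool is known to be used up within days of birth, so the youngest kidneys studied lie at or just past its end. In whole organs, fewer cells of a type and less RNA per cell cannot be told apart.

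Values are the deposited signals, in arbitrary units scaled to the same trimmed mean on every array. Changes are differences of log2(signal + 16). The offset of 16 makes folds of dim genes smaller than they were. Levels are compared between groups for the same probe set, and between genes only to place members beside a background reference, which is a rough guide. The number of arrays limits the precision. The transcripts of 2 arrays went against their labels. The array labelled heart 1 week replicate 5 had a signal of 27187 for Sftpc, a surfactant gene of lung alveolar cells, and 2396 for Myh6, the myosin heavy chain of heart muscle. The array labelled lung 1 week replicate 4 had 1983 for Sftpc and 36022 for Myh6. The members followed the same pattern: Cited1 was 9.0 on the array labelled heart replicate 5, against 321.2 to 679.6 on the other 1-week heart arrays, and 650.3 on the array labelled lung replicate 4, against 8.0 to 15.6. Both were left out, which leaves 38 arrays, and the value with both kept is given beside the comparisons of heart and lung whose call it changes. The study's design text gives 5 animals per group for kidney and lung, and names none for heart. P-values for heart thus measure the spread between arrays, which may be technical.

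The label of progenitor and bud genes was only partly borne out by the kidney signals. A signal of 117.9, the 40th percentile of all values, was the level a group mean had to reach for a test, and Cited1, Eya1, Gdnf and Osr1, 4 of 9 members, lay below it in kidney at every age. Chemosensory receptor genes, known chiefly from nose and tongue, gave a second reference: 74 of them were on the array. Whether any of them is made in these organs was not tested, so they are a rough guide to background. Of those 74, 45 had a higher mean than Cited1 in kidney at 1 week, 56 a higher mean than Gdnf, 29 than Eya1 and 28 than Osr1. None was higher than Sall1 or Wnt4. Six2 and Ret were above the testing level, with 2 and 1 of the 74 higher at 1 week, but neither was called higher in kidney than in lung or heart, as described below. Sall1 and Lhx1 alone were higher in kidney than in both other organs at every age where the organs were compared, and Wnt4 was so at 1 week.

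**Figure D1:**
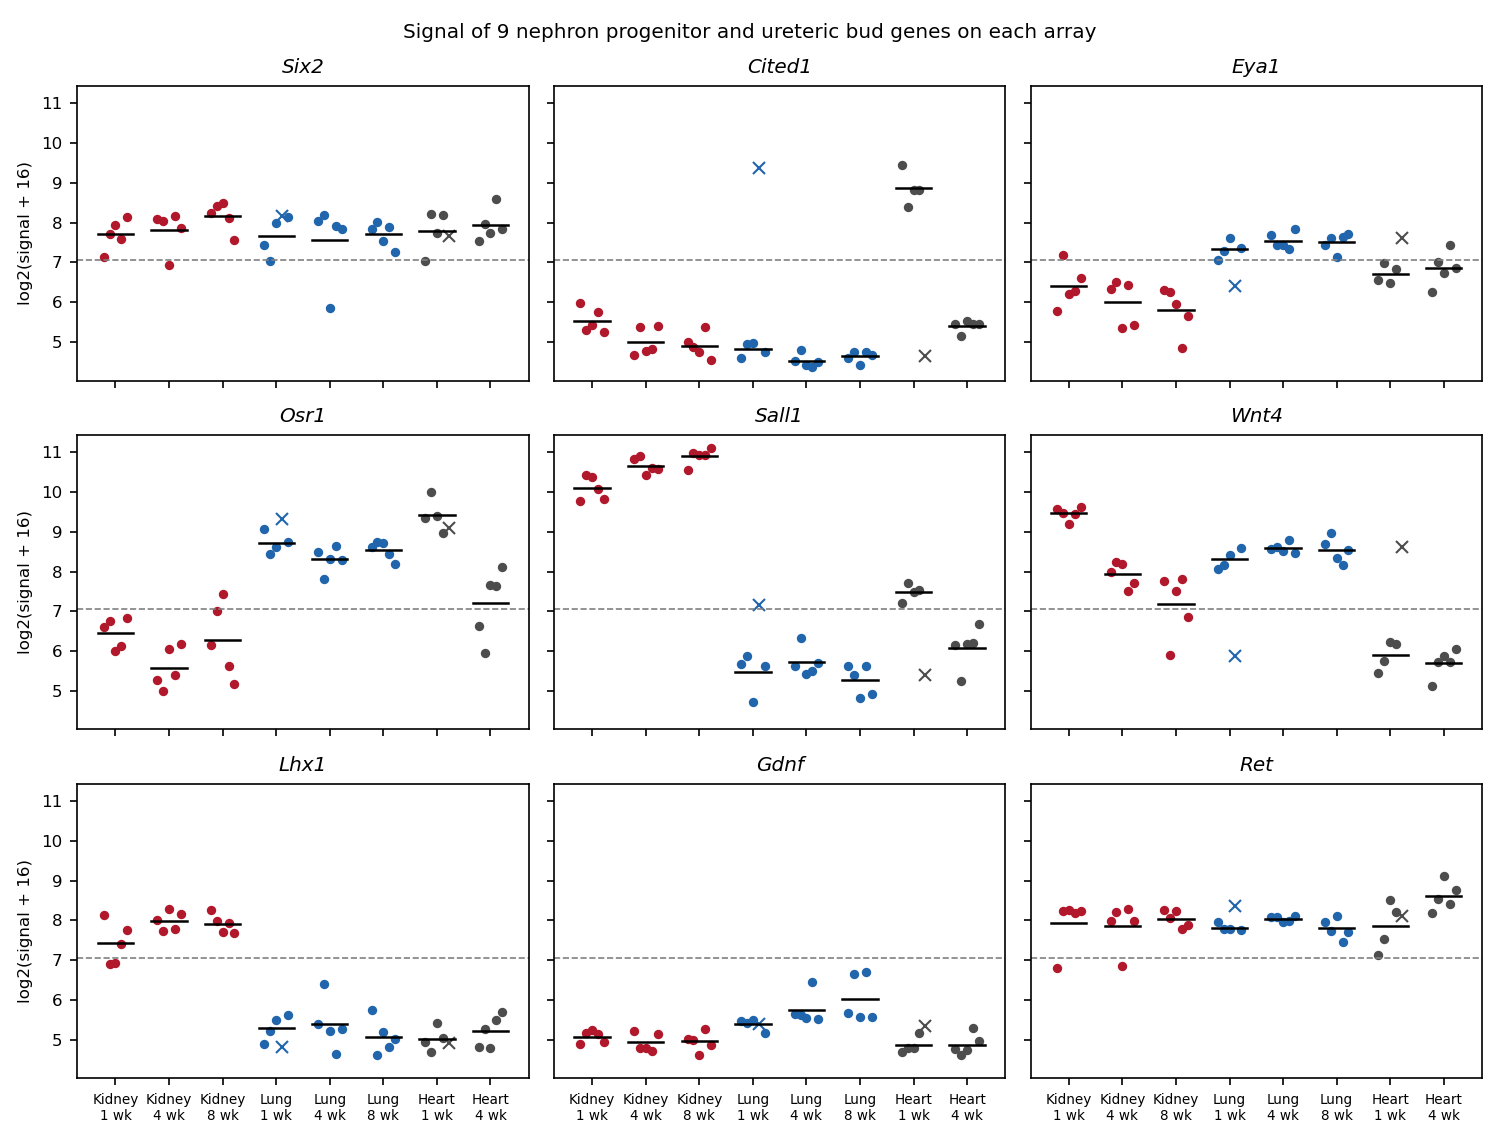
Signal of the 9 measured genes on each array as log2(signal + 16), by organ and age. Points are arrays, bars are group means over 4 or 5 arrays, crosses are the 2 arrays left out, and the dashed line is the testing level of 117.9. In kidney (red) Sall1 sits near the top of its scale and rises with age, Wnt4 falls, and Cited1 and Gdnf stay near the bottom, while Cited1 and Osr1 are high in heart at 1 week.

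Because the age results turn on Sall1, Lhx1, Wnt4 and Cited1, the 250 bases upstream of the annotated 5′ end of each are shown, 5′ to 3′ on the gene's strand, from RefSeq on build GRCm38.p6. The table held 7 of the 10 genes. Capitals mark matches on either strand to the TATA box (TATAAA), the CCAAT box (CCAAT), the GC box (GGGCGG), the TCF/LEF core of Wnt response elements (CTTTGAT) or a Six2-type homeodomain site, MEF3 (TCAGGTTTC).
Sall1, chr8:89044163-89044412, minus strand: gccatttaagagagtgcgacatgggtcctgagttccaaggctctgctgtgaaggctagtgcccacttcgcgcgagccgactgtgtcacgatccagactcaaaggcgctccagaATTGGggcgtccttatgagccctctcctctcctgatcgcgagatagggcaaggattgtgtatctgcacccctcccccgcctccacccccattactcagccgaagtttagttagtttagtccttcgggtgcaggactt
Lhx1, chr11:84525535-84525784, minus strand: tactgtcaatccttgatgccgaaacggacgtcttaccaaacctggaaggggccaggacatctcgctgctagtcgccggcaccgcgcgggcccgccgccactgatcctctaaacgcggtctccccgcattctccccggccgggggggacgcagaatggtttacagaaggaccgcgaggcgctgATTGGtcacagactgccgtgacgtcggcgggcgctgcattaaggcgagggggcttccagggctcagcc
Wnt4, chr4:137277385-137277634, plus strand: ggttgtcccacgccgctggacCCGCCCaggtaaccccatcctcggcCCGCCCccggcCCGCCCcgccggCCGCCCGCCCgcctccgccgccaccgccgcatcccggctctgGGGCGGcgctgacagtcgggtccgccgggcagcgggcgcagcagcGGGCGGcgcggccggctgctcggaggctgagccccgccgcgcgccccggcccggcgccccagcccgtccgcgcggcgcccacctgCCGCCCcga
Cited1, chrX:102252182-102252431, minus strand: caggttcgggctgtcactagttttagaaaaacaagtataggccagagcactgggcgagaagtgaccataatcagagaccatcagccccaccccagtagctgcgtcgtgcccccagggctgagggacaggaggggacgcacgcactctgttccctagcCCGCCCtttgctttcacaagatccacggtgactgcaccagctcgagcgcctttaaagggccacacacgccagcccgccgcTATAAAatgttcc

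The Wnt4 window stood out in base composition: its GC content was 85.2% with 44 CpG dinucleotides, against medians of 52.4% and 6 over 32851 RefSeq windows of the same length. It held 8 GC boxes, of which 2 overlap. The Sall1 and Lhx1 windows held 1 CCAAT box each, 137 and 68 bases before the start, and had GC contents of 56.4% and 64.8%. The Cited1 window held a TATA box 13 bases before the annotated start and 1 GC box 93 bases before it. The shares of all windows with at least 1 match were 12.4% for the TATA box, 33.8% for the CCAAT box and 32.7% for the GC box, so these matches are common. The TCF/LEF core and the MEF3 site, present in 3.21% and 0.387% of all windows, were not found in these 4. A match is a description of the letters, and none of these data measure binding.

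Among the members measured well enough to test in kidney, Sall1 was higher and Wnt4 lower at 8 weeks than at 1 week, and Six2, Lhx1 and Ret did not pass the test. Of 9 members, 5 were tested in kidney and 2 of these were called at 8 against 1 week (limma with Benjamini-Hochberg adjustment over all 13645 genes tested), in an organ where 47.4% of all genes tested were called. The share among the members was near that background. The median change of the 5 was 0.46, the value of Six2, which was not called, against -0.036 over all genes. With 1 member called higher and 1 lower, no common direction is read from it. Wnt4 stayed above the testing level at 8 weeks by its mean signal of 144.4, although 21 of the 74 chemosensory genes then had a higher mean, and none did at 1 week.

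Sall1 encodes a zinc finger transcription factor needed for ureteric bud invasion and for keeping the progenitors. Its signals in kidney were 857.0, 1351.0, 1304.6, 1062.2 and 885.9 at 1 week. At 4 weeks they were 1810.6, 1886.9, 1350.3, 1547.3 and 1498.7, and at 8 weeks 1492.1, 2016.4, 1937.1, 1920.5 and 2176.8. Every 8-week kidney exceeded every 1-week kidney, while 1 array at 4 weeks lay just within the 1-week range. The rise from 1 to 8 weeks was 0.81 on the log2 scale (SE 0.15, n = 5 per age), 1.75-fold, with a limma adjusted p of 0.000316, and from 1 to 4 weeks it was 0.58 (SE 0.15), 1.49-fold, with an adjusted p of 0.00512. The difference of 0.24 between 8 and 4 weeks did not pass the test (adjusted p = 0.785). A less bright probe set of Sall1 gave 178.2 to 376.6 at 1 week, 329.6 to 639.3 at 4 weeks and 356.4 to 482.6 at 8 weeks, and a change of 0.62 from 1 to 8 weeks (limma adjusted p = 0.0249).

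Wnt4 is a secreted signal that the progenitors make as they turn into epithelium, and it continues in some cells of the collecting system and stroma. Its kidney signals at 1 week were 748.2, 694.4, 570.9, 681.8 and 771.8. They were 237.1, 283.9, 274.9, 166.0 and 194.8 at 4 weeks and 202.3, 44.2, 167.0, 208.8 and 99.6 at 8 weeks. All 1-week arrays lay above all later arrays, the 4- and 8-week arrays overlapped, and the 8-week arrays were the most spread. Wnt4 fell by 2.29 on the log2 scale from 1 to 8 weeks (SE 0.29, 4.89-fold, limma adjusted p = 8.77e-06). It fell by 1.54 from 1 to 4 weeks (SE 0.29, 2.91-fold, adjusted p = 0.000467). The further difference of -0.75 between 8 and 4 weeks had an unadjusted p of 0.0202 and an adjusted p of 0.444. The other Wnt4 probe set went from 367.2 to 480.7 at 1 week to 104.2 to 150.7 at 4 weeks and 47.3 to 153.7 at 8 weeks, a change of -1.92 from 1 to 8 weeks (limma adjusted p = 1.73e-06).

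Lhx1 encodes a LIM homeodomain factor of the renal vesicle and of the early duct. Its signals in kidney were 264.5, 103.0, 105.1, 152.2 and 202.2 at 1 week, 239.6, 196.4, 294.1, 203.2 and 271.0 at 4 weeks and 289.5, 237.4, 194.5, 229.6 and 190.5 at 8 weeks. The ages overlapped, chiefly through replicates 1 and 5 at 1 week. The change was 0.50 at 8 weeks (SE 0.21, limma adjusted p = 0.0689) and 0.57 at 4 weeks (SE 0.21, 1.48-fold, adjusted p = 0.043). The 4-week call was lost in 8 of 15 fits that left out 1 kidney array, where the change ranged from 0.44 to 0.75. The gene's other probe set, lower in its mean log2 over all arrays but brighter in kidney, separated the ages: it gave 198.1 to 349.2 at 1 week, 441.3 to 608.6 at 4 weeks and 526.7 to 662.5 at 8 weeks, with a change of 0.93 at 8 weeks (adjusted p = 4.9e-05) and of 0.81 at 4 weeks (adjusted p = 0.000204). The probe sets thus shared the direction and differed in whether the 8-week change passed the test.

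**Figure D2:**
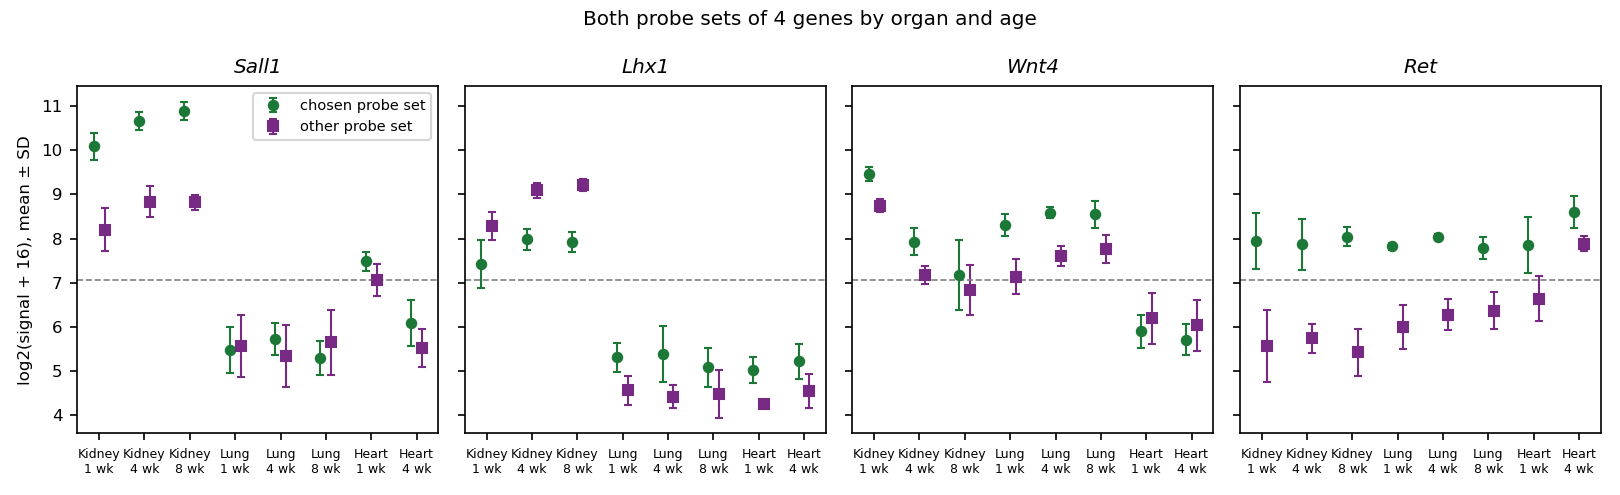
Group means with SD of both probe sets of Sall1, Lhx1, Wnt4 and Ret as log2(signal + 16), by organ and age. Green circles are the probe set with the highest mean over all arrays, purple squares the other, and the dashed line is the testing level. For Sall1, Lhx1 and Wnt4 both probe sets run the same way in kidney from 1 week to the later ages, whereas for Ret the other probe set lies below the testing level in kidney and above it in heart at 4 weeks.

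The remaining 2 tested members are the best known of all, and neither passed the test in kidney. Six2 encodes the homeodomain factor that keeps nephron progenitors undifferentiated. Its signals were 124.8, 193.0, 231.4, 176.1 and 267.8 at 1 week, 256.1, 246.1, 106.8, 270.8 and 215.6 at 4 weeks and 285.3, 323.4, 344.3, 262.9 and 173.4 at 8 weeks. The ages overlapped, and the 8-week difference was 0.46 (95% interval -0.062 to 0.98, limma adjusted p = 0.137). That interval leaves out a fall larger than 0.062 on this scale in the signal, background included. After quantile normalization the difference was 0.54 (adjusted p = 0.0159), and with the poly-A controls as a covariate it was 0.49 (adjusted p = 0.0416). The mean of the chemosensory genes in kidney also rose, on the same log2 scale. It was 5.45 to 6.26 at 1 week and 6.28 to 6.38 at 8 weeks, without overlap. Its part in the Six2 difference was not tested, so neither a fall nor a rise of Six2 RNA is read from these values.

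Ret encodes the receptor of the ureteric bud tip. Its kidney signals were 94.7, 287.5, 290.2, 274.8 and 284.1 at 1 week, 238.6, 278.0, 99.9, 298.6 and 237.5 at 4 weeks and 290.4, 249.0, 286.2, 202.8 and 220.2 at 8 weeks. Apart from 1 low array at each of the earlier ages, the ages covered the same range, and the difference between 8 and 1 weeks was 0.10 (SE 0.30, limma adjusted p = 0.801). The other Ret probe set stayed between 4.2 and 70.4 on all kidney arrays, below the testing level.

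Neither gene set kidney above the other organs. Six2 was 115.6 to 267.7 in lung and 114.1 to 282.3 in heart at 1 week, ranges that cover most of the kidney values, and none of its 5 differences between kidney and another organ at one age passed the test (limma adjusted p from 0.219 to 0.92, differences from -0.12 to 0.46). Ret was 198.7 to 230.9 in lung and 123.9 to 350.8 in heart at 1 week, and was called in 1 of the 5 comparisons, as lower in kidney than in heart at 4 weeks. Both genes were low on the same kidney arrays, replicate 1 at 1 week and replicate 3 at 4 weeks, and on heart replicate 1 at 1 week. Those 3 arrays also had the lowest means of the 74 chemosensory genes, 5.45, 5.52 and 5.51 as log2(signal + 16), and with heart replicate 1 at 4 weeks (5.87) were the 4 with the strongest signals of the poly-A controls, RNAs added during labelling (11.67 to 12.46 as log2). The other 34 arrays had chemosensory means of 5.90 to 6.43. The part of this background in the Six2 and Ret values was not tested. Without these 4 arrays, a choice made after seeing the data, Ret differed between kidney and lung at 1 week by 0.41 (adjusted p = 0.0327) and Lhx1 was called in kidney at 8 against 1 week (0.67, adjusted p = 0.00714).

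**Figure D3:**
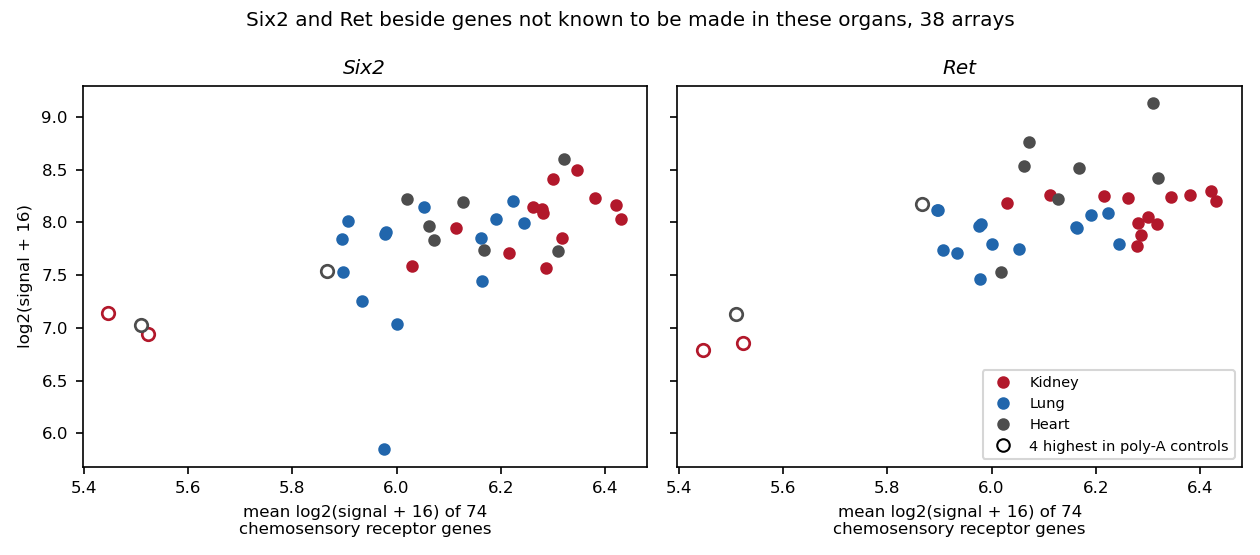
Six2 (left) and Ret (right) as log2(signal + 16) against the mean of 74 chemosensory receptor genes on the same scale, 1 point per array, coloured by organ. Open points are the 4 arrays with the strongest poly-A controls. They have the lowest chemosensory means, 5.45 to 5.87, and 3 of them have low Six2 and Ret signals, while kidney, lung and heart overlap among the rest.

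The 4 dim members gave no test of age in kidney. Cited1, a coregulator of uncommitted progenitors, was 46.9, 23.1, 26.7, 37.5 and 22.3 at 1 week and 7.2 to 25.3 at 8 weeks. Osr1, a zinc finger factor of the earliest kidney mesoderm and later of stroma, was 47.8 to 98.2 at 1 week, 15.7 to 56.8 at 4 weeks and 20.1 to 157.8 at 8 weeks. Eya1, the phosphatase and coactivator that works with Six2 and its relatives, was 39.3 to 128.4 at 1 week and 12.6 to 63.3 at 8 weeks on its brightest probe set, and 0.8 to 119.4 over all kidney arrays on the other two. Gdnf, the ligand of Ret, was 13.8 to 21.7 at 1 week, 10.4 to 21.2 at 4 weeks and 8.6 to 22.7 at 8 weeks. The 1- and 8-week arrays overlapped for each of the 4. With every gene tested whatever its level, Cited1 was called lower in kidney at 8 than at 1 week (-0.63, limma adjusted p = 0.02), and the other 3 were not called (adjusted p from 0.172 to 0.746). All Cited1 signals behind that call were under the testing level.

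In kidney at 4 against 1 week, 3 of the 5 tested members were called (Sall1, Lhx1 and Wnt4), where 42.7% of all genes were. Between 8 and 4 weeks limma called none of the 5, 1 of them had an unadjusted p under 0.05, and 0.623% of all genes (85) were called. The kidney 1-week arrays differed in the genes of neighbouring tissue. Replicates 3 and 4 had summed signals of 6191 and 5856 over 9 adrenal cortex markers, against 2117 to 2647 on the other 3, and 5908 and 6034 over 9 markers of adrenal medulla and sympathetic neurons, against 2383 to 3557. Without them Sall1 and Wnt4 remained called at both ages, while the 4-week Lhx1 change was 0.39 (adjusted p = 0.22). The summed signal of 11 liver markers was 50580 on replicate 1 and 21900 to 28880 on the others. Without replicates 1 and 5, the arrays with high Alb, Lhx1 rose by 0.85 at 8 weeks (adjusted p = 0.00124), and the 4-week change of Sall1 was 0.38 (adjusted p = 0.0542). The ratio of 3′ to 5′ actin probe sets also moved with age, from a log2 value of 0.34 to 0.51 at 1 week to 0.61 to 1.43 at 4 weeks and 0.73 to 0.99 at 8 weeks, and its part in these changes was not tested.

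**Figure D4:**
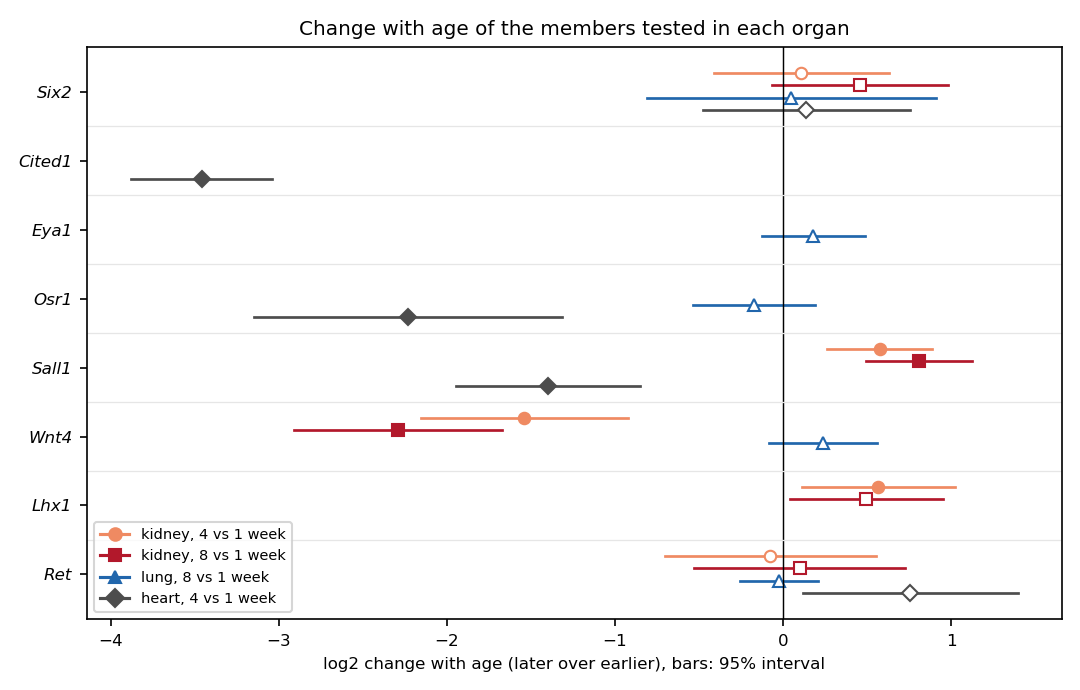
Change with age of each tested member, as the difference of mean log2(signal + 16) between the later and the earlier age, with 95% intervals from limma, by organ. Filled symbols passed an adjusted p of 0.05 and open symbols did not. Wnt4 lies left of 0 in kidney and close to 0 in lung, Sall1 lies right of 0 in kidney and left of it in heart, and Cited1 has the largest change shown, in heart.

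In heart, Cited1, Osr1 and Sall1 fell with age. At 4 against 1 week, 5 members were tested in heart and these 3 were called, where limma called 26.6% of 12792 genes tested and 14.8% as lower. The median of the 5 was -1.40, against -0.039 over all genes. Cited1 and Sall1 reached the testing level at 1 week only, so a fall was the direction open to them.

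Cited1 signals in heart were 679.6, 321.2, 435.4 and 432.6 at 1 week and 27.8, 19.5, 30.5, 27.9 and 27.7 at 4 weeks. The ages lay far apart, and Cited1 fell by 3.46 on the log2 scale (SE 0.19, 10.98-fold, limma adjusted p = 4.46e-06). With the 2 arrays kept as labelled the change was -2.61 (adjusted p = 0.0335). Osr1 was 635.0, 1014.5, 659.5 and 486.0 at 1 week and 83.8, 45.4, 187.8, 182.4 and 263.1 at 4 weeks. No 4-week array reached the 1-week range, and Osr1 fell by 2.23 (SE 0.41, 4.69-fold, adjusted p = 0.00307; with the 2 arrays kept, -2.16 and 0.00372). Sall1 was 131.7, 193.7, 162.5 and 169.2 at 1 week and 54.6, 21.8, 56.2, 57.2 and 86.0 at 4 weeks, again without overlap, and fell by 1.40 (SE 0.25, 2.64-fold, adjusted p = 0.00236). With the 2 arrays kept, that change was -0.98 and was not called (adjusted p = 0.128).

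Six2 and Ret were the other members tested in heart. Six2 differed by 0.14 (SE 0.28, limma adjusted p = 0.766). Ret was 123.9, 168.7, 350.8 and 281.7 at 1 week and 272.8, 355.8, 543.6, 326.5 and 419.2 at 4 weeks, overlapping ranges with a difference of 0.76 (SE 0.29, adjusted p = 0.0797). The other Ret probe set separated the ages, with 44.7, 126.5, 96.4 and 85.4 at 1 week and 213.8, 237.2, 258.7, 183.4 and 217.1 at 4 weeks, a rise of 1.25 (adjusted p = 0.00233). With the replicate number as a block the chosen probe set was called as well (0.72, adjusted p = 0.0239). On the probe sets chosen, Wnt4, Lhx1, Eya1 and Gdnf were below the testing level in heart at both ages.

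In lung, limma tested 5 members at 8 against 1 week on the probe sets chosen and called none, with no unadjusted p under 0.05, where 44.3% of 13706 genes were called. Wnt4, which is also made in the lung, was 250, 269.9, 327.8 and 370.5 at 1 week, 339.0 to 423.6 at 4 weeks and 271.9 to 487.4 at 8 weeks. These ranges overlapped and the 8-week difference was 0.24 (adjusted p = 0.223), although the other Wnt4 probe set gave 0.63 (adjusted p = 0.0153) and the mean of both gave 0.44 (adjusted p = 0.0296). Osr1 was 332.8 to 524.3 at 1 week and 276.0 to 415.6 at 8 weeks (difference -0.17, adjusted p = 0.445), and Eya1 was 118.1 to 181.2 and 124.0 to 195.7 (0.18, adjusted p = 0.335). Gdnf, too dim to test, was 20.2 to 28.8 at 1 week and 35.0, 84.0, 31.5, 87.7 and 31.8 at 8 weeks, ranges that did not overlap. With every gene tested whatever its level, the difference was 0.64 and was not called (adjusted p = 0.0865).

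The level of each member by organ placed several of these kidney genes elsewhere. Kidney and lung were compared at 3 ages and kidney and heart at 2, with 8 members tested in each. Against lung, 6, 6 and 5 of the 8 were called at 1, 4 and 8 weeks, where limma called 49.4%, 63.6% and 64.8% of 14849 genes. Against heart, 5 and 7 of 8 were called at 1 and 4 weeks, beside 51.6% and 60.2% of all genes.

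On the probe sets chosen, Sall1 had the widest gap between kidney and lung. Its lung signals were 10.1 to 42.8 at 1 week, 26.9 to 64 at 4 weeks and 12.4 to 33.6 at 8 weeks. The kidney excess over lung was 4.62, 4.95 and 5.62 on the log2 scale (SE 0.23, 0.22 and 0.22; 24.6-, 30.9- and 49.0-fold), and over heart it was 2.61 at 1 week and 4.58 at 4 weeks. Lhx1 was 8.4 to 68.5 on all lung arrays and 9.9 to 35.8 on all heart arrays, and its kidney excess ran from 2.12 to 2.84 over lung and from 2.40 to 2.78 over heart. All of these differences had limma adjusted p of 3.82e-08 or lower. The lung and heart signals of both genes were mostly below the testing level, so the folds depend on the offset of 16. Lhx1 reached the testing level in kidney only, so a kidney excess was the direction open to it.

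Wnt4 changed its order among the organs. At 1 week kidney exceeded lung by 1.15 (SE 0.25, 2.23-fold, limma adjusted p = 0.000266). At 4 weeks kidney lay below lung by 0.66 (SE 0.24, adjusted p = 0.0162) and at 8 weeks by 1.37 (SE 0.24, 2.59-fold, adjusted p = 6.34e-06), with no overlap of arrays at any of the 3 ages. The 4-week call was lost on the other probe set of Wnt4 (-0.44, adjusted p = 0.125), with the poly-A controls as a covariate (-0.52, adjusted p = 0.0708), without kidney 4 weeks replicate 4 (-0.56, adjusted p = 0.0549) and with the 2 arrays kept as labelled (-0.66, adjusted p = 0.178). Heart Wnt4 was 27.3 to 58.7 at 1 week and 18.8 to 50.5 at 4 weeks, and kidney exceeded it by 3.57 and 2.23.

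Osr1 and Eya1 were lower in kidney than in lung. Osr1 differed by -2.25, -2.73 and -2.26 at 1, 4 and 8 weeks (4.76-, 6.62- and 4.81-fold lower; limma adjusted p of 3.49e-06 or lower), without overlap, and by -2.97 from heart at 1 week. It was under the testing level in kidney at every age and was tested through lung and heart, so lower in kidney was the direction open to it. Eya1 differed from lung by -0.93, -1.54 and -1.72 (adjusted p = 0.00474, 3e-06 and 4.33e-07), with overlap at 1 week only. On this probe set Eya1 reached the testing level in lung only, so lower in kidney was the direction open to it. On a second Eya1 probe set the differences were -0.49, -0.73 and -0.82, and the 8-week one alone was called (adjusted p = 0.0492). Cited1 was highest in heart at 1 week, 3.33 above kidney (10.1-fold, adjusted p = 1.49e-17). It reached the testing level in that group only, so lower in kidney was again the direction open. The counts above include Cited1 in kidney against lung at 1 and 4 weeks and against heart at 4 weeks, where the signals of both organs were under the testing level, so no difference in level is read from them. With the 2 arrays kept, none of these 3 Cited1 calls remained (adjusted p = 0.84, 0.518 and 0.609). Ret was lower in kidney than in heart at 4 weeks by 0.74 (adjusted p = 0.0125), and by 2.15 on its other probe set (adjusted p = 9.19e-08). Without kidney 4 weeks replicate 3, which had the low Ret signal, the difference was -0.49 and was not called (adjusted p = 0.0786).

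Whether the changes with age differed between organs was tested directly, in 1 fit of all groups. Of 8 members, 2 had a kidney change from 1 to 8 weeks that differed from the lung change, where limma called 30.6% of genes. For Wnt4 the kidney change minus the lung change was -2.53 (SE 0.35, adjusted p = 7.25e-07), and for Sall1 it was 0.99 (SE 0.32, adjusted p = 0.0163). Against heart, from 1 to 4 weeks, 3 of 8 differed, where 23.7% of genes did: Cited1 by 2.93 (SE 0.25, adjusted p = 4.19e-11), Sall1 by 1.97 (SE 0.32, adjusted p = 1.38e-05) and Wnt4 by -1.34 (SE 0.35, adjusted p = 0.0042). Cited1 was under the testing level in kidney at both ages, so its contrast largely restates the fall in heart. Sall1 was under that level in lung at every age, and Wnt4 in heart at both ages. The Sall1 contrast with lung and the Wnt4 contrast with heart thus largely restate the kidney changes. Osr1 lay at the threshold (1.34, adjusted p = 0.0504). The Sall1 difference from lung was not called on the gene's other probe set (0.54, adjusted p = 0.413), and with the 2 arrays kept as labelled Sall1 alone remained called against heart (1.56, adjusted p = 0.0192).

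Most tested genes of the wider nephron progenitor program fell with age in kidney. The lists were drawn from knowledge of kidney development, with earlier results of these data known, and none of their genes is a member. Their counts are thus a description and not an independent test. For a list gene that reached the testing level in kidney at 1 week only, a fall was the direction open. Such genes were not counted apart, and the same filter applied to all genes. Of 20 nephron progenitor genes, 19 were on the array and 14 were tested, of which 10 were lower and 1 higher at 8 than at 1 week by limma, beside 27.9% of all genes lower and 19.5% higher. Their median change was -1.30, against -0.036 over all genes. Signals of this list were not confined to kidney. The summed signal of the 19 was 15590 to 17260 in kidney at 1 week and 7835 to 8367 at 8 weeks. In lung it was 11590 to 13620 at 1 week and 15910 to 19160 at 8 weeks. As a mean log2 value, the list was higher in kidney at 1 week (8.583 to 8.869) than in lung at 8 weeks (7.378 to 7.522). In kidney at 8 weeks that value was 7.620 to 7.765. The 2 measures thus disagreed at 8 weeks: the sum was higher in lung and the mean log2 value in kidney. These differences were not tested. Ncam1, an adhesion molecule of induced mesenchyme, fell by 2.78 (SE 0.13, 6.89-fold), from a mean signal of 1475 to 200.1. Hoxd11, a patterning factor of the metanephric mesenchyme, fell by 2.20 (SE 0.33, 4.61-fold), and Wt1, which is needed for progenitor survival and stays on in podocytes, fell by 1.99 (SE 0.17, 3.96-fold). The single gene that rose was Crym, a thyroid hormone binding protein, by 0.60 (SE 0.10).

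Early nephron genes, those of the renal vesicle and the comma- and S-shaped bodies, were lower for 8 of 14 tested and higher for 2, with a median of -0.43. Sox4 fell by 2.38 (SE 0.19, 5.19-fold), the Notch ligand Jag1 fell by 1.71 (SE 0.10) and the cadherin Cdh6 fell by 1.22 (SE 0.18), while Pou3f3, a factor of the loop and distal nephron, rose by 0.39 and Ccnd1, a cyclin, by 0.33. Of 13 ureteric bud and Ret response genes tested, 6 were lower and 1 higher, with a median of -0.33. They included Mmp14, a matrix protease, which fell by 2.44 (SE 0.16), Wnt9b, the bud signal that induces the mesenchyme, which fell by 1.72 (SE 0.39), and Wnt11, a tip signal downstream of Ret, which fell by 1.40 (SE 0.15). Met, the receptor of hepatocyte growth factor, rose by 0.35 (SE 0.10). At 1 week the summed signal of the 18 bud and response genes on the array was 11190 to 14400 in kidney and 16400 to 17770 in lung.

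The regulators of Gdnf and Ret were lower for 10 of 13 tested and higher for none, with a median of -0.78. Aldh1a2, the retinoic acid synthesis enzyme of the stroma, fell by 2.99 (SE 0.23, 7.92-fold), Foxc2 fell by 1.78 (SE 0.16) and Spry1, the inhibitor that restrains Ret signalling, fell by 1.33 (SE 0.14). Stromal progenitor genes were lower for 10 of 13 and higher for 1, with a median of -1.46. Tcf21 fell by 2.88 (SE 0.11, 7.37-fold), the atypical cadherin Fat4 fell by 2.84 (SE 0.26) and Meis1 fell by 2.48 (SE 0.29), while Ecm1 rose by 0.71 (SE 0.12). The highest limma adjusted p among the genes named from these 5 lists was that of Met, 0.00902.

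**Figure D5:**
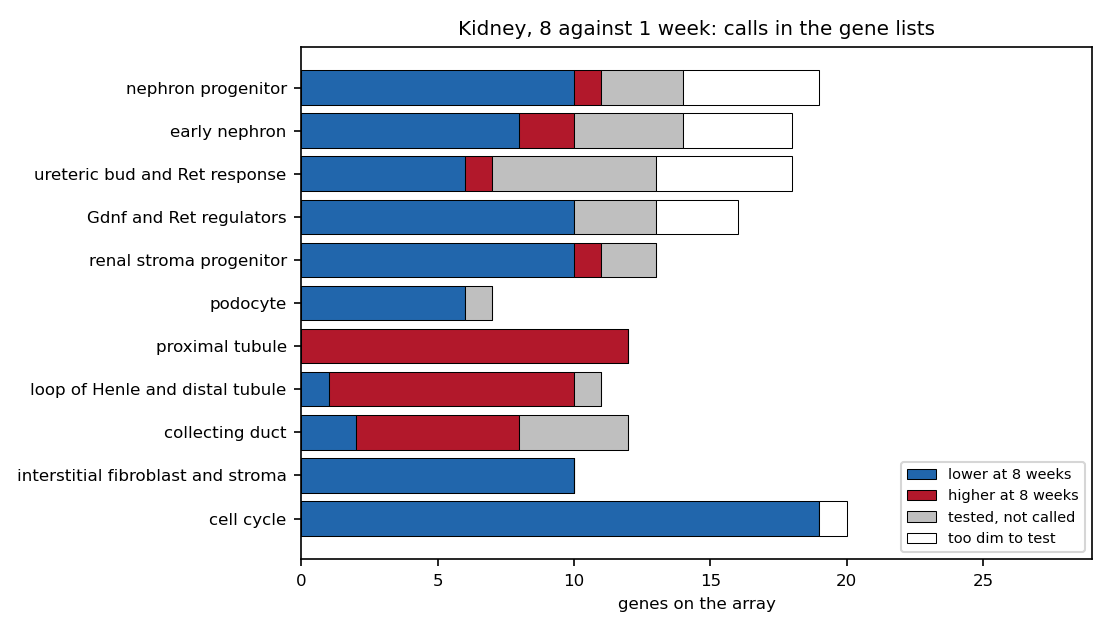
Number of genes of each list on the array that were lower (blue), higher (red) or not called (grey) at 8 against 1 week in kidney, with genes too dim to test in white. The progenitor, regulator, stroma and cell cycle lists are mostly lower, and the proximal tubule list is higher for all 12 of its genes.

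Markers of other kidney cells moved alongside. All 12 proximal tubule markers rose, with summed signals of 110200 to 144600 at 1 week and 214000 to 284500 at 8 weeks. All 10 markers of fibroblasts and stroma fell, from sums of 66660 to 87290 to sums of 12430 to 15450. Of 20 cell cycle genes, 19 were tested and all 19 fell, from sums of 17260 to 23250 to sums of 4065 to 5174. Of 7 podocyte markers 6 fell, of 11 loop and distal tubule markers 9 rose and 1 fell, and of 12 collecting duct markers 6 rose and 2 fell. The part of these shifts in the changes of Sall1 and Wnt4 was not tested. Of markers from other organs in kidney at 8 against 1 week, limma called 1 of 8 adrenal cortex genes, 1 of 7 adrenal medulla genes and 1 of 2 testis and epididymis genes tested. Of 11 liver genes 3 were higher and 5 lower. It called 1 of 6 alveolar type 2 genes and none of 2 cardiomyocyte genes.

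The same lists were counted in lung and heart. In lung at 8 against 1 week, where 22.1% of all genes were lower and 22.2% higher, 2 of 12 tested nephron progenitor genes were lower and 3 higher (median 0.16). In heart at 4 against 1 week, where 14.8% were lower and 11.8% higher, 5 of 10 were lower and 1 higher (median -0.59). Gdnf and Ret regulators were lower for 7 of 15 in lung and 5 of 14 in heart. Cell cycle genes fell for 19 of 19 in lung and 18 of 19 in heart. Differences between organs in these counts were not tested.

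The genes whose pattern over the 38 arrays was most like that of each member called in kidney at 8 weeks were found by the root mean square (RMS) difference of centred log2 values among 13932 genes. Arrays of an organ share its identity, so the measure mostly reflects organ. For Sall1 they were Pipox, a peroxisomal sarcosine oxidase (RMS 0.49), Gas2, a cytoskeletal protein (RMS 0.55), and Mfsd4b1, a sugar transporter (RMS 0.61). Mean signals of Pipox in kidney were 2208 at 1 week and 5501 at 8 weeks, against 98.8 in lung at 8 weeks. For Wnt4 they were Mapk13, a p38 kinase (RMS 0.48), Plac8 (RMS 0.56) and Krt18, a keratin of simple epithelia (RMS 0.56). Mapk13 had mean kidney signals of 514.6, 240.4 and 129.5 at 1, 4 and 8 weeks and 362.8 in lung at 8 weeks.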

How the data were processed

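Members and gene lists were chosen with earlier results of these data known. Per the labels, Trizol was used for extraction and the cRNA was labelled with biotin. Per the submitters' processing notes, RMA and Partek 6.6 were used, without a stated role. What was deposited are intensity values on a linear scale (0 to 69706.7), with no detection calls, and not the log2 values that RMA writes. How probes were summarised is not given in the sources used here.

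Of 45101 probe sets, 34958 carry 1 gene symbol in the platform annotation, 932 several and 9211 none, and those with several or none were not used. The probe set of highest mean log2 value stood for its gene. Pax2 had none of its own and was not analysed here. Testing required a group mean of at least 117.9, the 40th percentile over all arrays. Group means of log2(signal + 16) were compared with limma 3.58.1 in R 4.3.3 (lmFit, eBayes), with all ages of an organ in 1 fit and organs in 1 fit of all 38 arrays, p-values adjusted by Benjamini-Hochberg per comparison, and a threshold of 0.05. The fit was tested on simulated data. Named genes are the members, the 3 genes most like each member called in kidney at 8 against 1 week, and up to 3 genes per list with the largest called change, beside markers that move with a result. Genes that changed against the rest of their list were named after their values were seen. Tables were handled in R with data.table (version 1.17.8), and matplotlib 3.10.9 drew the plots. No pair of arrays was identical (highest correlation 0.974). The labels do not say what a replicate number marks. Residual correlations of same-numbered arrays of an organ ran from -0.22 to 0.27 in kidney, -0.069 to 0.22 in lung and 0.006 to 0.445 in heart, where there were 4 pairs. For arrays of different organs at one age with the same number in the description they ran from -0.166 to 0.259 (18 pairs). No block was used.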

Additional observations from a re-analysis of the deposited data

Results flagged for a closer look

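Within groups, 6 of 72 sets of values of a member held an array far from the rest by Dixon's criterion, where chance gives about 1 in 20. In kidney, Ret was lowest on replicate 1 at 1 week (94.7) and on replicate 3 at 4 weeks (99.9), and Six2 on the latter array too (106.8). Both arrays have strong poly-A controls and low chemosensory means, as described above. Six2 was also low on lung 4 weeks replicate 3 (41.6), an array whose poly-A controls and chemosensory mean lay within the range of the other lung arrays. Gdnf was high on lung 4 weeks replicate 4 (70.8) and Cited1 low on heart 4 weeks replicate 2 (19.5), both at signals under the testing level.

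Changes with age that differed between organs by limma's contrast of changes were those of Sall1 (0.99) and Wnt4 (-2.53) between kidney and lung, from 1 to 8 weeks. Between kidney and heart, from 1 to 4 weeks, they were those of Cited1 (2.93), Sall1 (1.97) and Wnt4 (-1.34). Cited1 was under the testing level in kidney at both ages, Sall1 in lung at every age and Wnt4 in heart at both ages.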

How the results depend on the processing

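Over the alternatives tried, the Sall1 rise and the Wnt4 fall in kidney at 8 against 1 week kept direction and call, with changes of 0.61 to 0.90 and of -2.45 to -1.92. Counts of members called moved by more than 1.5 times in 5 cases. Quantile normalization gave 4 in kidney at 8 against 1 week, the mean of all probe sets gave 1 in lung, and an offset of 1 gave 1 for the kidney minus lung change. For the kidney minus heart change, leaving out kidney 1 week replicates 1 and 5 gave 5, and keeping the 2 arrays as labelled gave 1. Leaving out 1 array at a time moved no count past that limit: 2 to 3 in kidney at 8 weeks and 3 to 4 in heart. For single members, such fits kept the call in 2433 of 2468 cases. With the replicate number as a block, the count in heart was 4 and Ret was called (0.72), and no other call changed. Among the members' values the sign turned in 91 of 3507 cases, in 88 of them with no call on either side. The other 3 were Cited1 in kidney against lung at 1 week with the 2 arrays kept (-0.19, adjusted p = 0.84), and the other Ret probe set in kidney against lung at 8 weeks (-0.94, adjusted p = 0.00577) and against heart at 1 week (-1.08, adjusted p = 0.00422). The cause was not tested. Members under the testing level (Cited1, Eya1, Osr1 and Gdnf in kidney) are limited by signal over background. At the 30th percentile the same 4 lay below the level in kidney at every age, and at the 50th 5, 4 and 5 did at 1, 4 and 8 weeks.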
